A study of Mus musculus with 15 samples.

Results

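The genes described here encode granule proteases of mast cells and their relatives (Mcpt1, Mcpt2, Mcpt4, Mcpt8, Cma1, Cpa3, Tpsb2, Tpsab1 and Ctsg) and the alpha chain of the high-affinity IgE receptor (Fcer1a). They were taken as every non-control probe whose gene name in the array files is one of these 10 symbols. All 10 were found, each on 1 probe of 60 bases, among 37008 named genes on the array. They were measured in tumours of the MMTV-PyMT strain, whose MMTV promoter drives the polyoma middle T oncogene in mammary epithelium. There were 7 tumours of the Wsh background and 8 of the B6 background, all from mice at 20 weeks and each on 1 one-colour array. Wsh is the usual name of the Kit W-sh allele, an inversion on chromosome 5 beside Kit, and adult mice with it lack mast cells. Every group carries the PyMT transgene. The groups differ in the Kit allele, the inversion and any other DNA of the 2 backgrounds, and these cannot be told apart from the lack of mast cells. Whether any tumours came from 1 mouse is not stated in the labels, and the p-values below cover only the spread between arrays.

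Mast cells store proteases in secretory granules bound to proteoglycan. Chymases such as Mcpt4 cleave after aromatic residues, tryptases after basic residues, and the carboxypeptidase Cpa3 removes residues from the ends of peptides. IgE bound to its receptor on the cell surface triggers their release when antigen links it. In the mouse, mast cells of connective tissue carry Mcpt4, Cma1, Tpsb2 and Cpa3, while mucosal mast cells carry Mcpt1 and Mcpt2. Mcpt8 is a protease of basophils, Ctsg (cathepsin G) belongs to neutrophil precursors as well as mast cells, and Fcer1a is made by both mast cells and basophils. The C57BL/6 strain is known to lack a functional Tpsab1 product because of a splice-site change.

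The 3 genes with a large difference between the tumours lie in 2 genomic regions. Their promoters, and that of the mucosal gene Mcpt1 from the same cluster as Mcpt4, are shown because the 3 moved together across B6 tumours, while Mcpt1, whose promoter is close in sequence to that of Mcpt4, was detected on none. Each window runs from 250 bases before to 50 bases after the RefSeq gene start (GRCm38.p6), 5′ to 3′ on the gene's strand. Capitals mark AGATAA or TGATAA (letters recognised by GATA factors) and TATAAA on either strand.
Mcpt4 (chr14:56062261-56062560, minus strand): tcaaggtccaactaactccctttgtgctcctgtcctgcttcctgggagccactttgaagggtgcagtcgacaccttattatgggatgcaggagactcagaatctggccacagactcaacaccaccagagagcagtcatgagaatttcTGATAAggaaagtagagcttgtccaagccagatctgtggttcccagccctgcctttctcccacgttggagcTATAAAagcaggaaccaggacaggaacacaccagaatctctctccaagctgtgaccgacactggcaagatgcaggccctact
Mcpt1 (chr14:56017714-56018013, plus strand): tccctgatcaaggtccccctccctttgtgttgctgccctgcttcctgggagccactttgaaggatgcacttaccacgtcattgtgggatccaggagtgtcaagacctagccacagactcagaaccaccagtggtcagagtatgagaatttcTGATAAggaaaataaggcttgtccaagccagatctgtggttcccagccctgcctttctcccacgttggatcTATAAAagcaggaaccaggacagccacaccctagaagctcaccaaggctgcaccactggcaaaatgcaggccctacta
Cma1 (chr14:55944626-55944925, minus strand): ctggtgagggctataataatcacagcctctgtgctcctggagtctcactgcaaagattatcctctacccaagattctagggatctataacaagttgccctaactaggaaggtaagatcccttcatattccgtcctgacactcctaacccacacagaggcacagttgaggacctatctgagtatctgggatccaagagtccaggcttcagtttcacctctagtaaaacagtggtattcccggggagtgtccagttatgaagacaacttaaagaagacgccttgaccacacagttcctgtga
Cpa3 (chr3:20242132-20242431, minus strand): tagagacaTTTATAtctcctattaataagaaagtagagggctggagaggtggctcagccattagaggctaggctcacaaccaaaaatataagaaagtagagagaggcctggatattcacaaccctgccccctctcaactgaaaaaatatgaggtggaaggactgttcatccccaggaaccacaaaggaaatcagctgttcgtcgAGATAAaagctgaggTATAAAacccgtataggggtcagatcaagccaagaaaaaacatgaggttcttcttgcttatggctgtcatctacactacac
The Mcpt4 and Mcpt1 windows were 88.2% identical over 288 aligned bases. Gaps were left out of this share, which makes it high for any pair. Other pairs of member windows ran from 68.9% (Ctsg with Mcpt8, 212 aligned bases) to 86% (Fcer1a with Mcpt8, 50 aligned bases). Both held TGATAA, 103 to 98 bases before the start in Mcpt4 and 99 to 94 bases before it in Mcpt1, and TATAAA close to the start. Cpa3 held AGATAA 46 to 41 bases before the start and TATAAA 31 to 26 bases before it. Cma1 held none of these exact letters in this window. Looser forms of them were not searched for in any window, so other GATA-like letters may be present. Of all 32544 distinct promoter windows of this length in the RefSeq table, 18.5% held AGATAA or TGATAA and 13.6% held TATAAA. Promoters of 7 of the 10 members were listed, of which 4 held AGATAA or TGATAA and 5 held TATAAA. A match describes the letters and is no evidence of binding.

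Values below are log2 of the processed signal minus the 75th percentile of the same array, so levels of different probes are not compared with each other. A spot is called well above background by the flag of the scanner software. The 75th percentile ran from 3550 to 4582 signal units on Wsh arrays and from 3328 to 6406 on B6 arrays, and 58.8% to 70.8% of spots were well above background on Wsh arrays against 55.7% to 73.4% on B6 arrays. Wsh and B6 were compared with limma over 22344 genes, each kept on at least 7 of 15 arrays, and genes with a Benjamini-Hochberg adjusted p under 0.05 passed. Kit itself was lower on Wsh arrays (log2 difference -2.65, SE 0.28, limma adjusted p = 0.000208), with 3 of 3 Kit probes between -2.65 and -2.40. The mean of 8 luminal epithelial markers was 4.06 to 4.70 on Wsh arrays and 4.20 to 5.02 on B6 arrays, so tumour epithelium was measured on every array.

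Of the 10 members, 5 were kept by the filter (Mcpt4, Cma1, Cpa3, Tpsb2 and Fcer1a), and 2 passed the test, Mcpt4 and Cma1, both lower in Wsh tumours. Over all genes tested, 0.336% passed in either direction and 0.228% were lower in Wsh. The same 2 members had every Wsh value below every B6 value, as had 0.242% of all genes. Mcpt4, Cma1 and Cpa3 were kept through the B6 arrays alone, so a filter-free fit of all 56605 probes was also read. In it 2 of 10 members and 0.0866% of all probes passed, and the median log2 difference was -0.59 over the 10 members against -0.02 over all probes. In tumour tissue, fewer mast cells and less RNA per mast cell cannot be told apart.

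**Figure D1:**
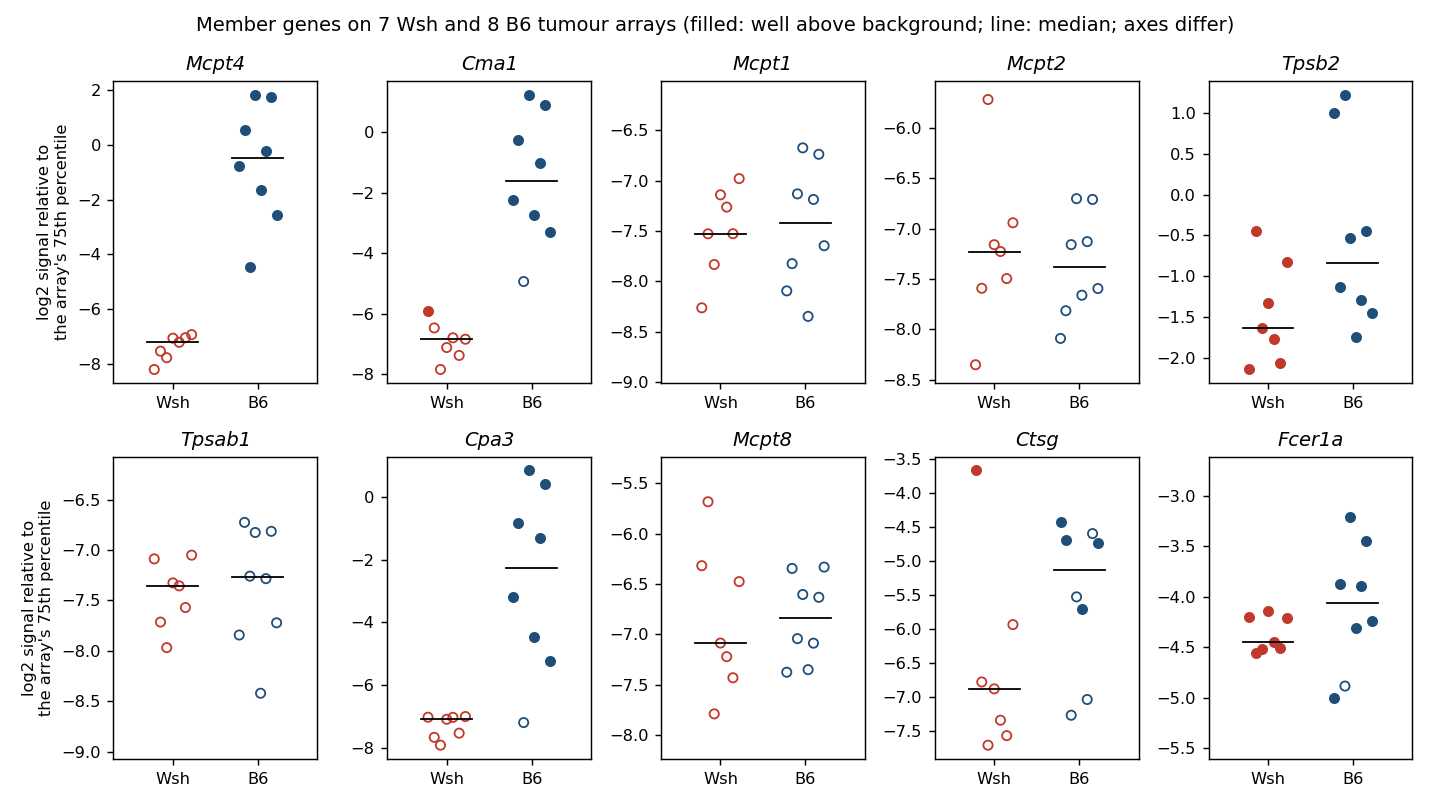
Signal of each member on each array, as log2 relative to the array's 75th percentile (vertical axes differ between panels). Points are arrays, with Wsh on the left and B6 on the right, filled where the spot was well above background; the line is the group median. Mcpt4 and Cma1 do not overlap between groups, and Cpa3 overlaps through 1 B6 array.

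Mcpt4, the main chymase of connective tissue mast cells in the mouse, showed the largest difference of the members tested. Its probe lies on the minus strand at chr14:56678589-56678648 (mm9, the build of the files). It was well above background on 0 of 7 Wsh arrays and 8 of 8 B6 arrays. Relative signals were -8.21, -7.54, -7.78, -7.07, -7.22, -7.05 and -6.94 on Wsh replicates 1 to 7, all of them not well above background. On B6 replicates 1 to 8 they were -0.77, 0.53, -4.48, 1.83, -1.66, -0.22, 1.74 and -2.56. B6 replicates 4 and 7 were highest and replicate 3 lowest, and replicate 3 was still above every Wsh array. Because it was well above background on no Wsh array, the fold is a bound that holds for this background step and scaling. It was at least 24.5-fold lower in Wsh, from the mean of B6 against the lowest well-detected signal or the probe's own signal on each Wsh array. The fitted log2 difference, taken against background signal in Wsh, was -6.70 (SE 0.78, limma adjusted p = 0.000565). With normexp background correction it was -4.12 (17.4-fold) and in the authors' deposited values -4.48 (22.3-fold), both smaller than that bound. It was -6.93 and -6.39 on the 2 slides taken alone, where limma's adjusted p was 0.326 and 0.204.

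Cma1, the mouse chymase most like the human one in sequence, was measured by a probe on the minus strand at chr14:56560454-56560513 (mm9). Signals were well above background on 1 of 7 Wsh arrays, replicate 1, and on 7 of 8 B6 arrays. The relative signals on Wsh replicates 1 to 7 were -5.91, -6.47, -7.85, -7.12, -6.80, -7.38 and -6.85. On B6 replicates 1 to 8 they were -2.23, -0.26, -4.94, 1.23, -2.76, -1.04, 0.88 and -3.30. The groups did not overlap, and B6 replicate 3, the array not well above background, was closest to Wsh. The fitted log2 difference was -5.36 (SE 0.78, limma adjusted p = 0.00593). Since 6 of 7 Wsh arrays were not well above background, its size rests on the background step, at 41.1-fold as fitted, 9.32-fold with normexp and 11.8-fold from the authors' deposited values.

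Cpa3, the granule carboxypeptidase, did not pass the test although most B6 arrays were far above Wsh. Its probe lies on the minus strand at chr3:20115674-20115733 (mm9). It was well above background on 0 of 7 Wsh arrays, at -7.03, -7.67, -7.92, -7.09, -7.03, -7.54 and -7.01 on replicates 1 to 7. On B6 replicates 1 to 8 it stood at -3.18, -0.84, -7.20, 0.85, -4.47, -1.32, 0.43 and -5.22, and only replicate 3 was not well above background. That replicate lay within the Wsh range, while the other 7 were above it. Its level in Wsh was at least 6.48-fold lower. The fitted log2 difference, against background signal in Wsh, was -4.71 (SE 1.02, limma adjusted p = 0.0714). Without B6 replicate 3 the difference was -5.36 with limma's adjusted p = 0.0132.

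Tpsb2, the tryptase of connective tissue mast cells, was measured well above background on 7 of 7 Wsh and 8 of 8 B6 arrays. Its probe lies on the plus strand at chr17:25504819-25504878 (mm9). The relative signals on Wsh replicates 1 to 7 were -2.14, -0.45, -1.64, -1.33, -1.77, -2.06 and -0.83. On B6 replicates 1 to 8 they were 1.0, -1.13, 1.22, -0.53, -1.75, -1.29, -0.44 and -1.45. B6 replicates 1 and 3 stood apart at the top, replicate 7 was just above the highest Wsh array, and the other 5 lay within the Wsh range. The log2 difference was -0.91 (SE 0.44, limma adjusted p = 0.501). It was -1.53 on slide 1, which held both high B6 arrays, and -0.32 on slide 2. What this probe measured on Wsh arrays, where Mcpt4 and Cpa3 were not well above background, was not tested.

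Fcer1a, the IgE-binding chain of the receptor, differed little between groups. Its probe lies on the minus strand at chr1:175152865-175152924 (mm9). It was well above background on 7 of 7 Wsh arrays, at -4.20, -4.56, -4.52, -4.14, -4.45, -4.51 and -4.21 on replicates 1 to 7. On B6 replicates 1 to 8 it stood at -5.01, -3.87, -4.89, -3.21, -4.31, -3.89, -3.44 and -4.24. B6 arrays spanned both sides of the Wsh range, with replicates 1 and 3 below it and replicates 2, 4, 6 and 7 above it. The log2 difference was -0.26 (SE 0.24, limma adjusted p = 0.769). Of the 6 basophil markers looked for, which include Fcer1a itself, only Fcer1a was kept by the filter, and Mcpt8, Prss34, Cd200r3, Ms4a2 and Il4 were not.

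**Figure D2:**
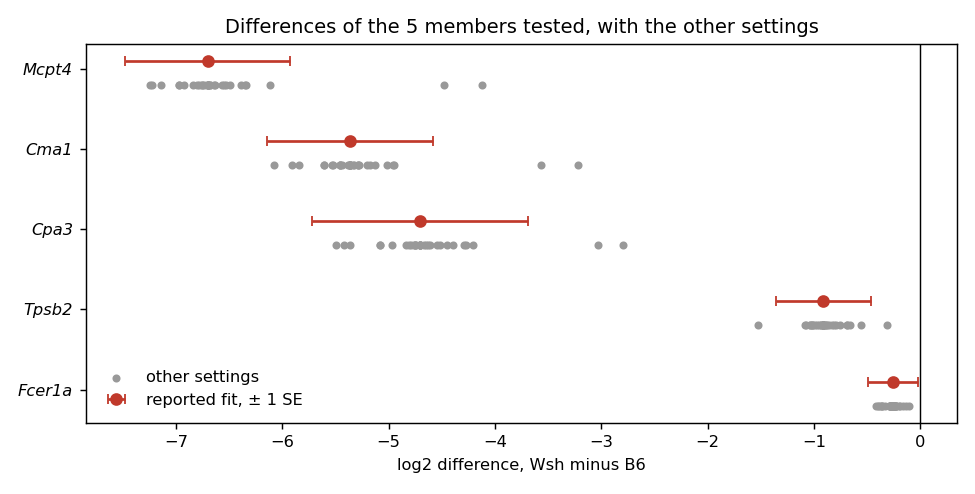
Log2 difference, Wsh minus B6, of the 5 members tested. Large points with bars are the reported limma fit ± 1 SE, and small grey points the same difference under the other settings. Mcpt4, Cma1 and Cpa3 stayed below 0 in every setting shown, as did Tpsb2 and Fcer1a at smaller size.

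The mucosal chymases Mcpt1 (probe at chr14:56638928-56638987) and Mcpt2 (chr14:56662265-56662324), the basophil protease Mcpt8 (chr14:56701075-56701134) and the tryptase Tpsab1 (chr17:25480640-25480699, all mm9) were well above background on 0 of 7 Wsh arrays and 0 of 8 B6 arrays. No fold is given for them. Mcpt1 ran from -8.26 through a median of -7.53 to -6.98 on Wsh arrays and from -8.35 through -7.42 to -6.67 on B6 arrays. Mcpt2 ran from -8.35 through -7.23 to -5.72 on Wsh arrays and from -8.09 through -7.38 to -6.70 on B6 arrays. These spans overlapped for each of the 4 genes. Mcpt8 ran from -7.79 through -7.09 to -5.68 on Wsh arrays and from -7.37 through -6.84 to -6.33 on B6 arrays. Tpsab1 ran from -7.97 through -7.36 to -7.05 on Wsh arrays and from -8.42 through -7.27 to -6.73 on B6 arrays. Ctsg, at chr14:56718795-56718854 (mm9), was well above background on 1 Wsh array, replicate 1, at -3.67, and on 4 B6 arrays, replicates 1, 2, 5 and 8, at -4.42, -4.69, -5.71 and -4.74. Its groups overlapped, and in the filter-free fit they differed by -1.05 on the log2 scale (SE 0.61, limma adjusted p = 0.745). No 2 of the 10 member probes and the probe named Cma2 shared a run of more than 8 bases. This compares probes with each other only, and whether a probe matches the transcript of another gene was not tested.

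Among B6 tumours the 3 genes Mcpt4, Cma1 and Cpa3 covered a wide range and kept 1 order. The B6 standard deviation (SD) was 2.16 for Mcpt4, 2.14 for Cma1 and 2.87 for Cpa3, and these ranked 146, 150 and 29 from the top of 22344 genes. The range from the lowest to the highest B6 array was 79.3-fold for Mcpt4. It was at least 72.1-fold for Cma1 and at least 55.3-fold for Cpa3, whose lowest array, replicate 3, was not well above background, so their SD also includes an undetected array. For all 3, the arrays ran from low to high as replicates 3, 8, 5, 1, 6, 2, 7 and 4. Across the 8 arrays Pearson's r was 0.990 for Mcpt4 with Cma1, 0.989 for Mcpt4 with Cpa3 and 0.994 for Cma1 with Cpa3. Spearman's rho was 1 for each. Each of these pairs had an exact permutation p of 2.48e-05, the smallest that 8 arrays allow, and 0.000124 after adjustment over the 15 pairs of members and Kit. Each pair was also read without the 2 arrays farthest from the median of its first gene. The first gene was the earlier in the order Mcpt4, Cma1, Cpa3, Tpsb2, Fcer1a and Kit. The arrays left out therefore depend on the pair. Without them r was 0.986, 0.981 and 0.987 for these 3 pairs, and centred within slides it was 0.990, 0.989 and 0.994.

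Fcer1a followed the 3 proteases less closely, with r of 0.804 to 0.868 (exact permutation adjusted p = 0.0366 with Mcpt4, 0.0238 with Cma1 and 0.0359 with Cpa3). These relations did not pass without the 2 farthest arrays (r = 0.624, 0.738 and 0.676) or when centred within slides (exact permutation adjusted p = 0.0632, 0.0521 and 0.0521). Fcer1a was lowest on B6 replicates 1 and 3, where Tpsb2 was highest, and on replicate 3 Fcer1a was not well above background. Tpsb2 showed no relation to the other 3 proteases that passed the test, with r of -0.281, -0.290 and -0.268 (exact permutation adjusted p = 0.506 each) and rho of 0.048. Without B6 replicate 3 its r with them was 0.316, 0.203 and 0.247. For Kit, only 1 of its 3 probes, the kept probe of highest mean, entered the correlations. Relations of its other 2 probes were not tested. On that probe Kit ran against the 3 proteases, with r of -0.651, -0.698 and -0.655. It did not pass (exact permutation adjusted p = 0.116, 0.0885 and 0.116). Fcer1a with Kit gave r = -0.794 (exact permutation adjusted p = 0.0366) and rho = -0.905 (exact permutation adjusted p = 0.0171). Centred within slides r was -0.786 (exact permutation adjusted p = 0.0326), and without the 2 farthest arrays it was -0.809 and did not pass (exact permutation adjusted p = 0.149). On that Kit probe B6 replicates 1 and 3, the lowest in Fcer1a, were the highest at 3.84 each. The other 2 Kit probes gave another order. There replicate 6 was highest, at 0.68 and -0.17, and replicate 3 stood at -0.25 and -0.95.

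**Figure D3:**
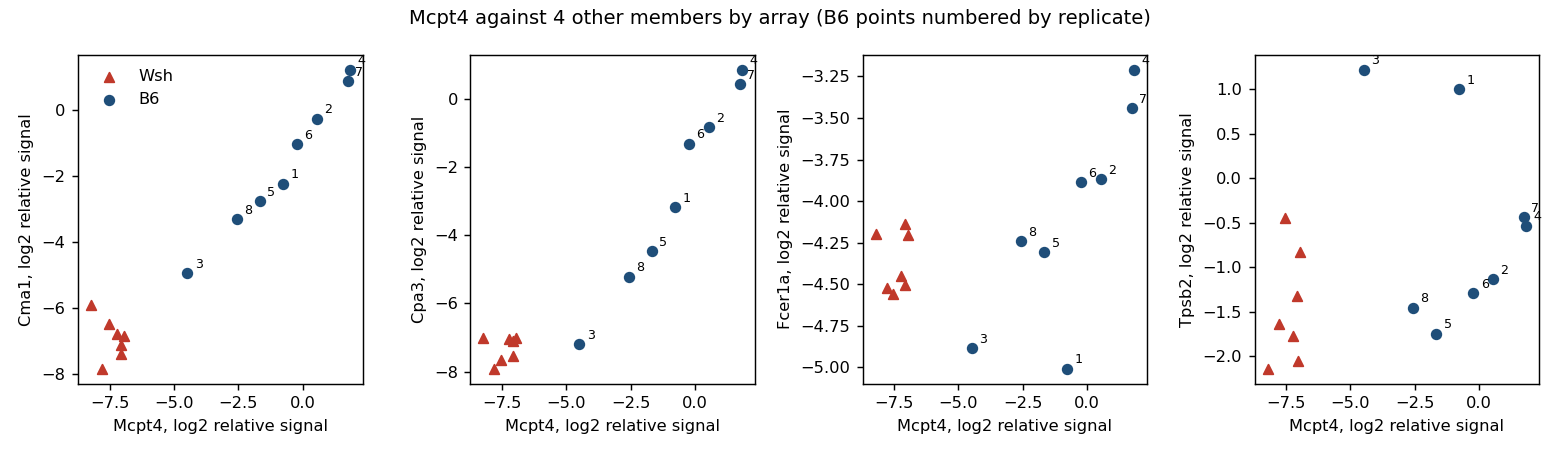
Mcpt4 on the horizontal axis against Cma1, Cpa3, Fcer1a and Tpsb2 on the vertical axes, all as log2 relative signal. Triangles are Wsh arrays and circles are B6 arrays, numbered by replicate. Cma1 and Cpa3 follow Mcpt4 in 1 order across B6, while B6 replicates 1 and 3 stand apart for Tpsb2.

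The level of the 3 proteases moved with stromal markers among B6 tumours. Their mean was set against 9 marker means and 2 measures of array signal over the 8 B6 arrays, and p-values were adjusted over these 11 relations. With the mean of 8 adipocyte markers r was 0.963 (rho 0.976, exact permutation adjusted p = 0.000546 for r and 0.00437 for rho). With 6 fibroblast markers r was 0.957 (rho 0.905, exact permutation adjusted p = 0.00259 and 0.0251), and with 5 endothelial markers 0.851 (rho 0.881, exact permutation adjusted p = 0.0294 and 0.0266). With 8 luminal epithelial markers r was -0.826 (exact permutation adjusted p = 0.0294) and rho -0.714 (exact permutation adjusted p = 0.127). With 6 skeletal muscle markers r was 0.633 (exact permutation adjusted p = 0.135) and rho 0.833 (exact permutation adjusted p = 0.0423), so these passed by rank alone. Without the 2 arrays farthest from the median of each marker mean these r were 0.989, 0.936, 0.827, -0.595 and, for skeletal muscle, 0.501. Centred within slides they were 0.976, 0.959, 0.889, -0.841 and, for skeletal muscle, 0.679. Neither r nor rho passed for B and plasma cell, nerve and Schwann, neutrophil and keratinocyte markers. Their r was 0.667, 0.437, 0.421 and -0.440 (exact permutation adjusted p = 0.135, 0.357, 0.357 and 0.357). Without the 2 farthest arrays it was 0.927, -0.006, 0.313 and -0.780. The part of each tissue in all these relations was not tested. The array's 75th percentile gave r = 0.0002 and the share of spots well above background r = -0.215. After a linear fit on the adipocyte mean was removed, a step chosen after seeing the data, r among the 3 proteases was 0.892, 0.925 and 0.934. After the fibroblast mean it was 0.894, 0.871 and 0.935.

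The adipocyte mean itself ran from 1.01 to 4.03 on Wsh arrays and from -2.53 to 4.37 on B6 arrays, so the Wsh arrays lay within the B6 range of these markers. Wsh replicate 2 had an adipocyte mean of 1.64 and Mcpt4 at -7.54, against 1.6 and -0.77 on B6 replicate 1, a pair of arrays picked after their values were seen. With the adipocyte mean as a covariate, an alternative also chosen after seeing the data, the log2 differences were -7.22 for Mcpt4, -5.91 for Cma1 and -5.42 for Cpa3 (limma adjusted p = 2.99e-06, 5.2e-06 and 0.000231). With the fibroblast mean they were -6.49, -5.13 and -4.39 (limma adjusted p = 3.39e-05, 0.000125 and 0.0057). All 3 members passed with either covariate. These fits used 1 slope for both groups. Across B6 the protease mean followed the adipocyte mean, while on Wsh arrays it stayed between -7.85 and -6.93. A separate slope for each group was not tested. The mean of 6 skeletal muscle markers was 1.34 to 4.86 on Wsh replicates 1, 3, 4 and 5 and 1.62 on B6 replicate 4, against -2.60 or less on the other arrays. Without those 5 arrays the differences of Mcpt4 and Cma1 were -6.12 and -4.95 (limma adjusted p = 0.092 and 0.158), so neither passed.

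**Figure D4:**
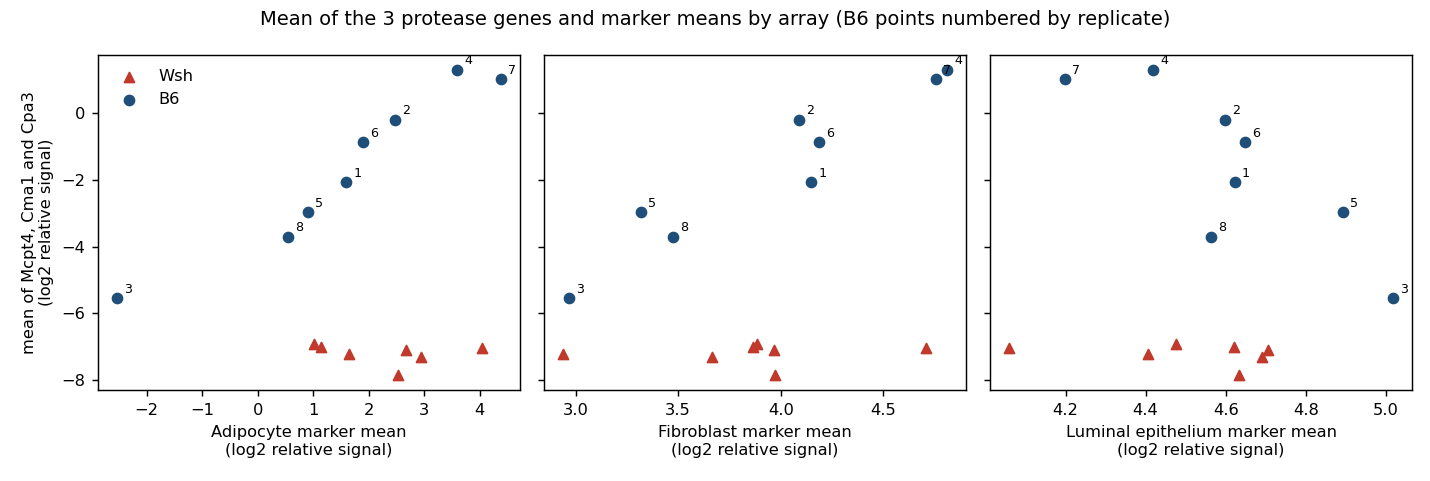
Mean of Mcpt4, Cma1 and Cpa3 against the means of adipocyte, fibroblast and luminal epithelial markers, all as log2 relative signal. Triangles are Wsh arrays and circles are B6 arrays, numbered by replicate. Across B6 the protease mean runs from -5.54 to 1.30 with the adipocyte mean, while the Wsh arrays lie between -7.85 and -6.93 at adipocyte means of 1.01 to 4.03.

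The genes whose pattern was most like the mean of the 3 proteases over the 8 B6 arrays were Retnlg (r = 0.993), Penk, Clec10a, Abcb1a, Prdm6, AK136349, Chst7, Vat1l, Il1rl1 and Cyp27a1 (r = 0.983). Such likeness was common, since 2.27% of 22341 genes had r over 0.9 and 1.12% were under -0.9. By limma 0 of the 10 passed the test between Wsh and B6, 0 had an unadjusted p under 0.05, and 8 of 10 had the higher mean in Wsh. Clec10a, a lectin of macrophages and dendritic cells, differed by 0.55 (SE 0.54, limma adjusted p = 0.794). Il1rl1, the receptor of interleukin 33 on mast cells and other cells, differed by -0.18 (SE 0.53, limma adjusted p = 0.948). Of the markers, 7 of 8 adipocyte and 3 of 6 fibroblast genes had r over 0.9 with the protease mean.

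Of 24 other mast cell genes, 18 were tested and only Kit passed, with a median log2 difference of -0.01, the same as over all genes. Kit was well above background on 7 of 7 Wsh arrays, and which cells made it was not tested. Tph1 and Hdc, enzymes of serotonin and histamine synthesis, differed by -0.32 (SE 0.69) and 0.38 (SE 0.54), with limma adjusted p = 0.925 and 0.873. The transcription factor Gata2 differed by 0.29 (SE 0.48, limma adjusted p = 0.897). By limma 2 of the 18, Kit and Rab27b, had an unadjusted p under 0.05. Among these 18 genes 5 (Il1rl1, Alox5, Siglecf, Gata2 and Ltc4s) had r over 0.9 with the protease mean across B6 arrays. Each is also made by other cell types. Over the 18 genes r ran from -0.914 (Rab27b) to 0.983 (Il1rl1). Of all genes 2.27% had r over 0.9 and 1.12% were under -0.9. Of the genes not kept, the beta chain of the IgE receptor Ms4a2 was well above background on 0 of 7 Wsh arrays and 2 of 8 B6 arrays, replicates 2 and 4, on 1 of its 2 probes. The receptor Mrgprb2 of connective tissue mast cells was detected well above background on 0 of 15.

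Among 13 genes of IgE receptor signalling, 12 were tested and 0 passed by limma. The 3 genes Inpp5d, Lcp2 and Vav1 had an unadjusted limma p under 0.05. Of the 12 genes 11 were above 0, against 10768 of all 22344 genes tested. Their median log2 difference was 0.33, against -0.01 over all genes. The signalling genes are shared with other leukocytes. Syk differed by 0.90 (SE 0.44, limma adjusted p = 0.501) and Inpp5d by 0.63 (SE 0.22, limma adjusted p = 0.308). Of 10 neighbours in the chymase and granzyme cluster 5 were tested and 0 passed by limma, with 3 at an unadjusted p under 0.05 (Cma2, Gzmc and Mcpt-ps1). The probe named Cma2, which also lists the accession of Mcpt4, averaged -3.05 ± 0.37 on Wsh arrays and -1.15 ± 1.36 on B6 arrays (SD, n = 7 and 8) and had r = 0.980 with the protease mean across B6. Its log2 difference was -1.90 (SE 0.49, limma adjusted p = 0.147), and which gene it measured was not tested. Of 9 tryptase-like genes 3 were tested, and 0 passed by limma or had an unadjusted p under 0.05. Of 7 other carboxypeptidases 3 were tested, and 0 passed by limma, with 1 (Cpb2) at an unadjusted p under 0.05. The share of all genes with an unadjusted p under 0.05 was not counted, so these list counts have no background. Tpsg1, a membrane-anchored tryptase of mast cells, was not kept. It was well above background on 0 of 7 Wsh arrays and on B6 replicates 2, 4, 7 and 8, at -4.24, -2.95, -2.90 and -5.11.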

How the data were processed

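Tumour total RNA was amplified and Cy3-labelled for 1-colour Agilent arrays, per the labels' protocols. Per the file headers, the deposited processed intensity was made with Agilent Feature Extraction 10.7.3.1, with background subtraction and detrending and no normalization between arrays. The authors' deposited log2 table of these arrays served as an alternative; how it was centred and normalized is not given in sources used here. The submitters' processing notes name limma.

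Of 62976 spots, 59305 were not controls and carried 56605 probes. Outlier spots were left out and spots of a probe averaged. Probes were named through a RefSeq table of GRCm38 by accession (32994), symbol (10224) or synonym (520), and 12867 kept the files' name. Probes well above background on at least 7 arrays were kept (34349), and a gene was its kept probe of highest mean. Comparisons used limma 3.58.1 in R 4.3.3, and correlations exact two-sided permutations in scipy 1.17.1. Steps were tested on simulated data. Arrays correlated between 0.926 and 0.990 over genes. The number of arrays limits the precision.

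Every member and each of its probes is named. Genes most alike are the 10 of highest r, and genes of the fixed lists are counted, with those that passed or bear on a member named. Syk, Inpp5d, Tph1, Hdc, Gata2, Rab27b, Tpsg1, Ms4a2, Mrgprb2 and Clec10a were singled out after their values were seen. Members and lists were chosen with earlier results of these data known. Alternatives were another background correction, scaling, filter or probe rule, slides, replicate numbers, array weights, moderation options, deposited values and arrays left out; covariates were added after seeing the data.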

Additional observations from a re-analysis of the deposited data

How the results depend on the processing

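The number of members past the threshold was 2 and stayed at 2 or 3 in the other settings, except that it was 0 with a filter on all 15 arrays, which leaves Mcpt4, Cma1 and Cpa3 out, 0 on slide 1 alone, 0 on slide 2 alone and 0 without the 5 arrays with skeletal muscle, settings with fewer genes or samples. It ranged from 2 to 3 when each array was left out. Mcpt4 and Cma1 passed in 28 of 31 settings, with differences from -7.24 to -4.12 and from -6.08 to -3.22. Cpa3 passed in 4 of 31 (array weights, without B6 replicate 3 and both covariates), and Tpsb2 and Fcer1a in none. The number of all genes past the threshold, 75, was 25 with no filter, 49 with every probe, 4 on slide 1, 1 on slide 2, 152 with array weights, 25 without the 5 skeletal muscle arrays and 125 with the fibroblast mean, and 25 (without B6 replicate 5) to 76 (without B6 replicate 7) when each array was left out. With the replicate number as a block it was 15, with 2 members. The numbers do not pair the samples, since same-numbered arrays of the 2 groups had deviations that correlated between -0.243 and 0.211, with 1 of 7 pairs over 0.1 and 0 of 7 arrays best with their own number. Among B6 arrays the relations of Mcpt4, Cma1 and Cpa3 held in 17 of 17 settings (r from 0.871 to 1), those with Fcer1a in 3 to 4 of 17, and Fcer1a with Kit in 3 of 17. Tpsb2 turned sign with Mcpt4, Cma1 and Cpa3 by rank (rho 0.048 each), without the 2 farthest arrays (0.296, 0.160 and 0.213), without B6 replicate 3 (0.316, 0.203 and 0.247) and after the adipocyte mean (0.363, 0.197 and 0.247), while after the fibroblast mean it stayed below 0 (-0.701, -0.687 and -0.678, exact permutation adjusted p = 0.119 each). Its lowest r with each array left out was -0.446, -0.447 and -0.442. For Tpsb2 with Fcer1a and with Kit, the 2 arrays left out as farthest were those of Tpsb2, B6 replicates 1 and 3. Without them Tpsb2 turned to 0.959 with Fcer1a and -0.837 with Kit. After the adipocyte mean Kit turned to 0.370 with Mcpt4 and 0.129 with Cpa3. All relations with Kit used the same 1 Kit probe. Causes were not tested. No value of the 20 member groups was far enough from its group to be an outlier by Dixon's test.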
